A study of Homo sapiens with 24 samples.

Results

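HS578T is an established human triple-negative breast cancer cell line of mesenchymal character. The comparison described here took its 6 arrays out of 24 in the series, 3 from cells given AZD3965 for 24 hours and 3 from cells given the solvent DMSO for the same time. AZD3965 is a small molecule that blocks MCT1, a plasma membrane carrier of lactate and pyruvate. Both groups were grown in DMEM with 10% fetal bovine serum and antibiotics, and neither carried a transgene. The same inhibitor and solvent were applied for the same time to 2 further breast cancer lines, SUM149PT and SUM159PT, which the labels place in another medium (F12 with serum, insulin, hydrocortisone, EGF and gentamicin), with 3 arrays per group. These 12 arrays enter below as a comparison of effects, so line and medium cannot be told apart. The last 6 arrays were SUM149PT cells with a scramble or an MCT1 shRNA, on day 5 of selection with puromycin (2 ug/ml). These arrays entered no comparison. They served for the estimate of spread and, with all other arrays, for the choice of probe sets and of the genes tested. No source used here gives the concentration of AZD3965, and 1 inhibitor at 1 time in 1 line is what the comparison covers. The labels do not say whether the 3 arrays of a group stand for separate cultures. All p-values therefore rest on how far these arrays differ from each other, and that spread may be technical. The design text asks whether MCT1 contributes to the highly glycolytic state of such lines.

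As background, cells that run fast glycolysis convert glucose to pyruvate and lactate and move both out through proton-linked monocarboxylate carriers. Hypoxia-inducible factors (HIFs) are pairs of an oxygen-regulated alpha subunit and ARNT. Prolyl hydroxylases, which need oxygen, mark the alpha subunit for destruction through the VHL complex. HIF targets include genes for glucose transport, glycolysis, angiogenesis, collagen modification and mitophagy, and PDK1, whose product shuts the pyruvate dehydrogenase complex and so keeps pyruvate out of the mitochondrial citrate cycle.

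Signals are in units of the deposited MAS5 scale and depend on the probe, so levels of different genes are not set against each other. Log2 fold changes, AZD3965 minus DMSO, are on the log2(signal + 16) scale with standard errors, and a gene was called at a Benjamini-Hochberg adjusted p under 0.05 in limma's moderated test over 14141 genes. In HS578T the arrays correlated with the others of their group at a mean r of 0.981 to 0.986, and the 3'/5' ratio lay between 1.22 and 1.36 for actin and between 0.895 and 0.938 for GAPDH. The markers of HS578T were mainly mesenchymal. Its count of low epithelial markers set it apart from SUM149PT but not from SUM159PT. All 13 mesenchymal markers looked up, among them vimentin, ZEB1 and SNAI2, had means of at least 500 units in both groups, and their summed signal was 177100 to 184600 units under DMSO and 175500 to 186800 under AZD3965. Of 15 named epithelial and luminal markers, 10 had means under 60 units, CDH1, EPCAM and KRT19 among them, with sums of 7117 to 7419 and 7035 to 7631. The 2 with means of at least 500 units were KRT18 (5629 under DMSO), which made up most of the sum, and GATA3 (938). In SUM159PT under DMSO all 13 mesenchymal markers also had means of at least 500 units and 12 of the 15 epithelial markers were under 60, with an epithelial sum of 10080 to 11890, against 63880 to 68330 in SUM149PT. In SUM149PT under DMSO 10 of the 13 mesenchymal markers had means of at least 500 units as well, and 2 of the 15 epithelial markers were under 60. The leukocyte markers (10 named, none with a mean of 500 units) summed to 555.7 to 663.9 and 554.5 to 618 units. Endothelial sums were 867.2 to 991.8 and 830.1 to 975.2 (8 named), and adipocyte sums 487.4 to 564.1 and 454.1 to 489.9 (6 named). The 7 named basal markers summed to 11260 to 12280 units under DMSO and 12670 to 12730 under AZD3965, without overlap, and their part in the results was not tested. SFN (8900 units under DMSO) and KRT14 (1881 under DMSO and 2569 under AZD3965) were the brightest of them. None of the basal markers was called, and their median log2 fold change was 0.06.

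AZD3965 raised 30 genes in HS578T and lowered 13, which was 0.304% of the genes tested (0.212% higher and 0.0919% lower). The 3 treated arrays lay beyond the 3 DMSO arrays for each of the 43, while over all genes the treated arrays lay above for 8.42% and below for 10.9%. Changes were modest, with 23 of 43 at or past 1.5-fold. Of the 30 that rose, 11 belonged to the lists of hypoxia-responsive or glycolysis genes, which were chosen with earlier results of these data known. A DMSO mean of at least 100 units was found for 26 of the 30 rises, whereas 6 of the 13 falls started under 60 units. An unadjusted p under 0.05 was reached by 1170 genes (8.27%). Leaving out arrays moved the number called from 43 to 15 without AZD3965 replicate 1, 27 without AZD3965 replicate 3, 24 without DMSO replicate 1, 23 without DMSO replicate 3 and 77 without SUM149PT scramble replicate 3, an array whose actin 3'/5' ratio stood apart. The 9 genes called in every fit that left out an HS578T array were PDK1, AK4, BNIP3, BHLHE40, P4HA1, HAS2, RHOB, NMU and LOC389906, a set named after its values were seen. Each of the other called genes lost its call in at least 1 of these 6 fits, which kept the arrays of the other lines. With the 6 HS578T arrays alone RHOB, NMU and LOC389906 were not called (adjusted p of 0.0563, 0.286 and 0.0711). Centring each array on its median moved the median change of all genes from -0.02 to 0.14, and 97.1% of calls were then rises in place of 69.8%.

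**Figure D1:**
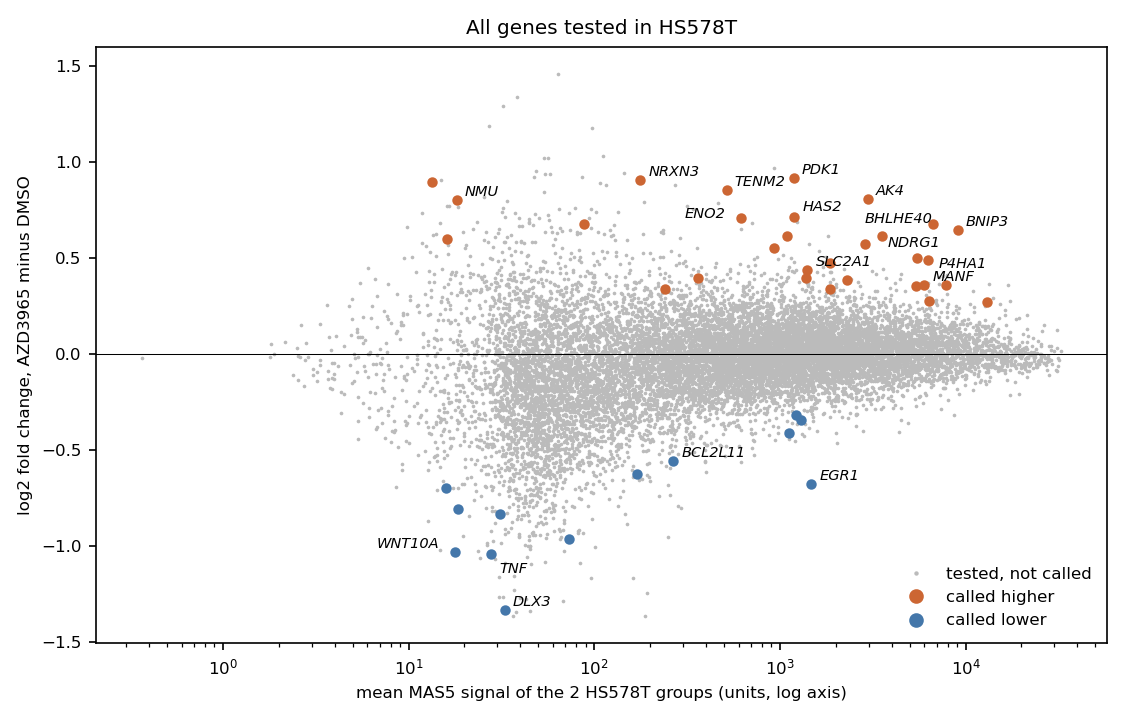
Log2 fold change in HS578T (AZD3965 minus DMSO, vertical) against the mean MAS5 signal of both groups (units, log axis) for the 14141 genes tested. Each point is a gene, the 30 called rises are orange and the 13 called falls blue. The rises lie mostly among bright genes such as BNIP3 and AK4, while DLX3, TNF and WNT10A fell from under 60 units.

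Hypoxia-responsive genes made up 9 of the 30 rises in HS578T. Of 46 measured members of a list of 52 these 9 rose and none fell, against 0.212% of all genes that rose. Like the other lists, this one was chosen with earlier results of these data known, so its shares are descriptions and no test. The count of 9 was 4 without DMSO replicate 3, 6 without AZD3965 replicate 1 and 22 with array weights. The median log2 fold change of the list was 0.30, against -0.02 over all genes, and all 3 treated arrays lay above all 3 DMSO arrays for 34 of the 46 (73.9%, against 8.42% of all genes). By array, the median member stood 0.28, 0.27 and 0.29 above the DMSO mean on the treated arrays and 0.04, 0.01 and -0.02 from it on the DMSO arrays. In SUM149PT and SUM159PT the same list had medians of -0.01 and 0.02 with no call, and the difference between lines is tested further on.

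Among the metabolic members, PDK1 encodes the pyruvate dehydrogenase kinase described above. Its signal was 725, 890 and 838 units on the DMSO arrays and 1566, 1430 and 1675 on the AZD3965 arrays. The lowest treated array was well above the highest control array. The rise was 0.92 ± 0.10 (SE; limma adjusted p = 1.52e-05). It was read by probe set 226452_at, while the other probe sets of the gene above the filter gave 0.41 and -0.12, and the mean over its probe sets gave 0.40 (adjusted p = 0.143). BNIP3, a mitochondrial receptor that directs mitophagy, read 7428, 7101 and 6663 units under DMSO and 11110, 10840 and 11250 under AZD3965. The treated arrays were tightly grouped and far from the controls. The change was 0.65 ± 0.06 (adjusted p = 7.49e-06), with 1.00 for a further probe set. AK4, a mitochondrial adenylate kinase, gave 2009, 2239 and 2218 units under DMSO and 3851, 3719 and 3775 under AZD3965. Again no treated array came near the controls, and the change was 0.81 ± 0.10 (adjusted p = 2.60e-04). All 3 other probe sets of AK4 had the same direction, at 1.00, 0.78 and 0.51. With 3 of 7 members called, the metabolic group had the highest median of the roles with more than 1 member, 0.41. BNIP3L, a relative of BNIP3 with a like role, was at 0.24 ± 0.08 (adjusted p = 0.253) and did not pass.

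**Figure D2:**
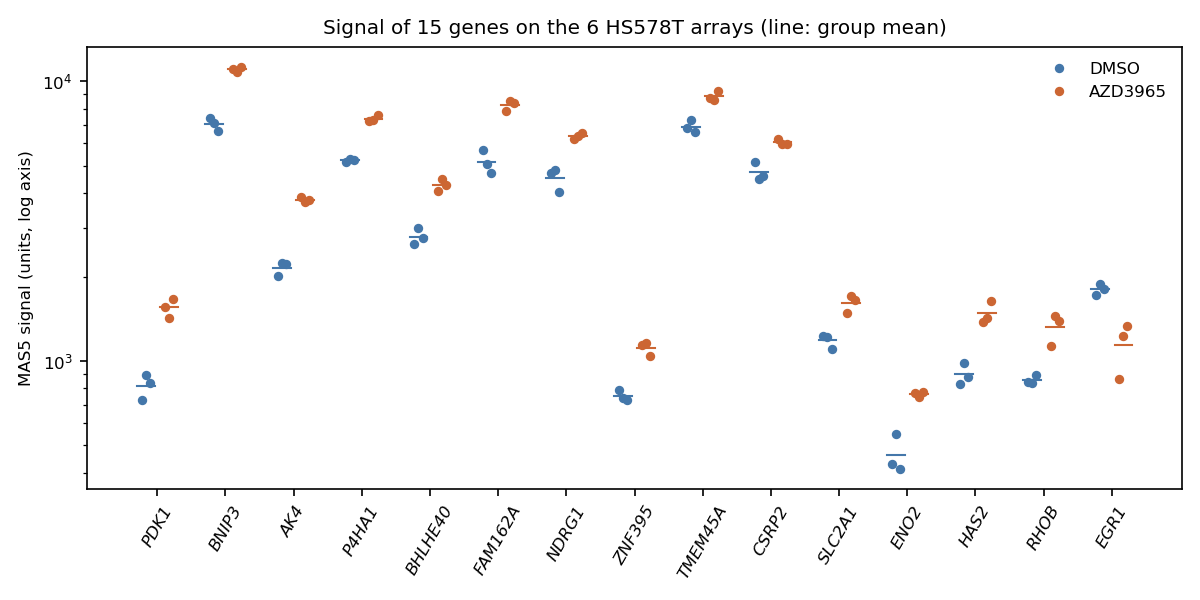
MAS5 signal (units, log axis) of 15 genes on the 3 DMSO arrays (blue) and 3 AZD3965 arrays (orange) of HS578T, with points for arrays and lines for group means. The arrays of the groups do not overlap for any gene shown, and EGR1 is the gene that was lower under AZD3965.

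Collagen-modifying enzymes and stress or growth genes followed. P4HA1, the catalytic subunit of the prolyl hydroxylase that stabilises the collagen helix, read 5145, 5296 and 5258 units under DMSO and 7232, 7271 and 7566 under AZD3965. Its DMSO arrays differed by little. The rise of P4HA1 was 0.49 ± 0.06 (adjusted p = 1.58e-04). This standard error rests on the spread within all groups of the series, not on the HS578T arrays alone. The mean over all of its probe sets, dim ones included, was 0.10 (adjusted p = 0.964). The lysyl hydroxylase PLOD2, which prepares collagen for crosslinking, was at 0.37 ± 0.08 (adjusted p = 0.0663). All 4 collagen-modifying members had treated arrays above control arrays, against 8.42% of all genes, and P4HA1 was the 1 called among them. FAM162A, a mitochondrial protein induced by hypoxia, gave 5686, 5057 and 4716 units under DMSO and 7860, 8488 and 8361 under AZD3965. The groups were apart, with a rise of 0.68 ± 0.12 (adjusted p = 0.00826), although the mean of its probe sets did not pass (0.44, adjusted p = 0.0810). NDRG1, a stress-responsive growth regulator, read 4715, 4821 and 4012 units and then 6233, 6364 and 6547. DMSO replicate 3 was the lowest array, and without it the rise of 0.50 ± 0.08 (adjusted p = 0.00641) became 0.42 (adjusted p = 0.0602). ZNF395, a zinc finger protein gene, rose by 0.55 ± 0.10 (adjusted p = 0.0163), with 0.32 (0.707) for the mean of its probe sets. TMEM45A, a transmembrane protein gene, rose by 0.36 ± 0.07 (0.0160), and CSRP2, a LIM domain protein of the actin cytoskeleton, by 0.35 ± 0.08 (0.0466). DDIT4, an inhibitor of mTORC1, at 0.33 ± 0.08 (0.0717), KDM3A, a histone demethylase, at 0.31 ± 0.07 (0.0754) and CA12, a carbonic anhydrase, at 0.29 ± 0.08 (0.146) did not pass.

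None of the 7 angiogenic and secreted members was called, with a median of 0.23. The best known of them, named for that reason after their values were seen, were the vascular growth factor VEGFA at 0.23 ± 0.11 (adjusted p = 0.600), the peptide adrenomedullin, ADM, at 0.37 ± 0.10 (0.155) and the crosslinking enzyme LOX at 0.29 ± 0.11 (0.384). For 5 of the 7 members, these 3 included, the treated arrays lay above the DMSO arrays (71.4%, against 8.42% of all genes). They lay below for 1, CCN5, at -0.53 ± 0.34 (0.754), also named after its value was seen. VEGFA, for example, read 5915, 5600 and 5383 units under DMSO and 6507, 6485 and 6881 under AZD3965.

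None of the 5 genes of HIF subunits or the 3 measured oxygen-sensing hydroxylases was called. Of 17 measured members of the list of HIF sensing and regulators, 1 rose and none fell, with a median of 0.02. HIF1A, the main alpha subunit, had a mean of 15280 units under DMSO and 15470 under AZD3965, a change of 0.02 ± 0.09 (adjusted p = 0.990). EPAS1, which encodes HIF-2 alpha, was at 0.09 ± 0.09 and ARNT at -0.13 ± 0.23, both with overlapping arrays. The hydroxylase gene EGLN1, itself a HIF target in many cells, was at 0.35 ± 0.10 (0.153), and VHL at 0.00 ± 0.20. The member that rose stood among the genes of HIF degradation and restraint. It was BHLHE40, a transcriptional repressor induced by hypoxia. It read 2618, 2990 and 2756 units under DMSO and 4073, 4487 and 4271 under AZD3965. With no overlap between groups, the rise was 0.62 ± 0.09 (adjusted p = 8.71e-04), a further probe set gave 0.54, and the mean of its probe sets gave 0.58 (adjusted p = 0.0626). RNA arrays do not measure the HIF proteins.

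The start sites of the called genes were searched for the core of the hypoxia response element, for which the letters ACGTG and GCGTG were used, on both strands. The windows were those of RefSeq (GRCh38.p14), 250 bases before to 50 after each listed start. CACGTG, the E-box that BHLHE40 and related factors bind, was searched as well, and each copy of it also counts as ACGTG on both strands. Windows were listed for 24 of the 30 genes that rose and for 10 of the 13 that fell. ACGTG was in a window of 14 of the 24 risen genes (58.3%), 1 of the 10 lowered genes (10%), 31.2% of the 11390 tested genes with a listed window and 24.9% of all genes in the table. GCGTG did not follow this order, with 45.8% of risen, 40% of lowered and 56.3% of these tested genes. CACGTG was in 20.8% of risen, 0% of lowered and 12.2% of these tested genes. A gene counted if any of its windows matched, and risen genes had 1.58 windows per gene against 1.45 for tested genes. Counted by window, ACGTG was in 42.1% of the windows of risen genes, 6.67% of lowered and 24.5% of tested genes. These shares are descriptions of short letter matches and show no binding. The 250 bases before the start of 6 risen genes are printed here because they carry the matches for members described in these paragraphs, with ACGTG and GCGTG, in either orientation, in capitals.
BNIP3: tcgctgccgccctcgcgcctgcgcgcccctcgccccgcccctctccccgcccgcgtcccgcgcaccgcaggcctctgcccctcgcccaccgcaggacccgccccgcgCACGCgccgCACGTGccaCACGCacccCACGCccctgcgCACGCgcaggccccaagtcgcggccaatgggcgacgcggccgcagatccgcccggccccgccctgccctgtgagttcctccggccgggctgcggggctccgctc
AK4: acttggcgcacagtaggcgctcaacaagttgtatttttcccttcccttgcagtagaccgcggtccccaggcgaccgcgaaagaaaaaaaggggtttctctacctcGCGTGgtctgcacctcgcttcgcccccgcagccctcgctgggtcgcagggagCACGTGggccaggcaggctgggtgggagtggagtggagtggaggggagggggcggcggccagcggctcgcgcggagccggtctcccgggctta
P4HA1: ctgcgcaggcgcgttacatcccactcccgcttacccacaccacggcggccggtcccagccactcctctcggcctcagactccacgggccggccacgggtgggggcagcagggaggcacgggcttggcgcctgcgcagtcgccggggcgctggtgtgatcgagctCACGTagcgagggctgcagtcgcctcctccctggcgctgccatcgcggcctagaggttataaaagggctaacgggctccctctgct
BHLHE40: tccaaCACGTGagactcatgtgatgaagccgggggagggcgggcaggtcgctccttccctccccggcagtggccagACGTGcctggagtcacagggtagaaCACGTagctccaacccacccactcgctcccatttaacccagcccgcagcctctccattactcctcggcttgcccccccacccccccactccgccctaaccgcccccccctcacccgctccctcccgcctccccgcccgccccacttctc
FAM162A: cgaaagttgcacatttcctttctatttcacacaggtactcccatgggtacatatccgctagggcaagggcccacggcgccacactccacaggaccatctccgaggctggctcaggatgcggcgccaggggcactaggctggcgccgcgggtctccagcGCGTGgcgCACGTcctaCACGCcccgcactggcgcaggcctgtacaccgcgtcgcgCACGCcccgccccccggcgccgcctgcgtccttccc
ENO2: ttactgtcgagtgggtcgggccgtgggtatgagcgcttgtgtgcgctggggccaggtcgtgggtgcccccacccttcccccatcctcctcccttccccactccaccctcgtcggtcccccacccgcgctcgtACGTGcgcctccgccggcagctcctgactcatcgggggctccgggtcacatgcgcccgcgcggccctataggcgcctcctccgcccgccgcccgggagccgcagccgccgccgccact
These windows lie at chr10:131981924-131982173 on the minus strand (BNIP3), chr1:65147302-65147551 on the plus strand (AK4, the first of 4 listed starts), chr10:73096867-73097116 on the minus strand (P4HA1), chr3:4979187-4979436 on the plus strand (BHLHE40), chr3:122383932-122384181 on the plus strand (FAM162A) and chr12:6914330-6914579 on the plus strand (ENO2). In BNIP3 the palindrome CACGTG starts 134 bases before the start and has 4 GCGTG matches around it. BHLHE40, the repressor gene that rose, has 4 ACGTG matches, counting both strands of 1 palindrome. PDK1 has 2 listed starts, and the window of 1 of them has ACGTG at 17 and 8 bases before the start while the window of the other has none.

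In glycolysis a glucose transporter gene and an enolase gene rose. Of 29 measured members of a list of 33, 2 rose and none fell, with a median of 0.22 and with treated arrays above control arrays for 13 (44.8%, against 8.42% of all genes). None was called without DMSO replicate 3, with the 6 HS578T arrays alone or with replicate number as a block. In the fits without AZD3965 replicate 1, AZD3965 replicate 3 or DMSO replicate 1, 1 was called, and 8 were called with array weights. SLC2A1, the glucose transporter GLUT1, read 1232, 1222 and 1110 units under DMSO and 1487, 1709 and 1654 under AZD3965. The groups did not overlap, and the rise was 0.44 ± 0.07 (adjusted p = 0.00641), although it became 0.0538 without DMSO replicate 3 and 0.0792 for the mean of its probe sets. ENO2, an enolase isoform, read 431, 548 and 413 units under DMSO and 769, 746 and 774 under AZD3965. Its rise of 0.71 ± 0.15 (0.0356) was lost in 5 of the 6 fits that left out an HS578T array (highest adjusted p = 0.154). HK2, the hexokinase that commits glucose to the cell, read 1143, 1668 and 1470 units and then 2421, 1848 and 2278. Its arrays were apart but spread widely, and 0.62 ± 0.14 did not pass (0.0649).

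The 10 genes from hexokinase to phosphofructokinase and its regulators had a median of 0.29, with none called and 8 whose treated arrays lay above control arrays, against 8.42% of all genes. PFKL, PFKM and PFKP, the phosphofructokinase subunits, were at 0.38 ± 0.10, 0.31 ± 0.09 and 0.28 ± 0.09 (adjusted p of 0.155, 0.192 and 0.278). Further down the pathway the values were smaller. The 4 triose phosphate genes had a median of 0.14 and the 7 genes of the payoff phase 0.06, where PGK1 at 0.28 ± 0.07 (0.142) and ENO2 were the highest. GAPDH was at 0.00 ± 0.20, PKM at 0.02 ± 0.08 and ENO1 at 0.04 ± 0.09. Lactate formation stood at -0.01, with LDHA at 0.05 ± 0.12 and LDHB at -0.01 ± 0.10. In SUM149PT and SUM159PT the glycolysis list had medians of 0.12 and 0.11 with no call.

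**Figure D3:**
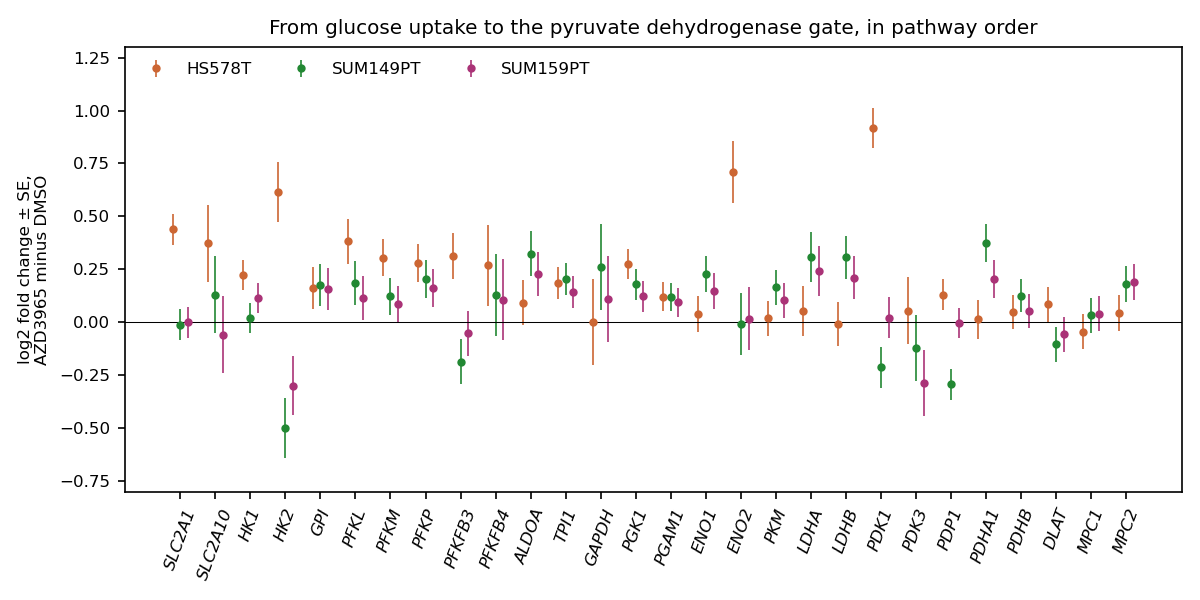
Log2 fold change ± SE (AZD3965 minus DMSO, 3 arrays per group) of genes in pathway order from glucose uptake to the pyruvate dehydrogenase gate, in HS578T (orange), SUM149PT (green) and SUM159PT (purple). In HS578T the highest values are PDK1 at 0.92, ENO2 at 0.71 and HK2 at 0.62, while the genes of lactate formation are near 0.

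At the gate between glycolysis and mitochondria the change was limited to 1 called gene. PDK1 was the sole called member of 14, and the list median was 0.05. PDK2, PDK3 and PDK4, kinases with the same substrate, were at -0.25 ± 0.26, 0.05 ± 0.16 and 0.17 ± 0.23. The complex subunit genes PDHA1 and PDHB were at 0.01 ± 0.09 and 0.05 ± 0.08, and the mitochondrial pyruvate carrier genes MPC1 and MPC2 at -0.04 ± 0.08 and 0.04 ± 0.08. None of 17 citrate cycle genes or 38 oxidative phosphorylation genes was called, with medians of 0.03 and 0.01. In glycogen metabolism PGM1, which interconverts glucose phosphates, was called among 13 members at 0.28 ± 0.06 (0.0466), a call lost in 5 of 6 fits without an array. PGM1 read 6235, 5522 and 5550 units under DMSO and 6978, 6975 and 6998 under AZD3965.

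Carriers related to the drug's target did not pass the test. Of the monocarboxylate transport list, 6 of 16 members were measured and none was called, with a median of -0.25, or -0.09 with each array centred on its median and -0.15 with quantile normalization. By array the median member stood at -0.07, -0.10 and -0.49 from the DMSO mean on the treated arrays, so AZD3965 replicate 3 was the lowest. SLC16A7, which encodes MCT2, was at -0.34 ± 0.24 (adjusted p = 0.787) with overlapping arrays. BSG, the chaperone that brings MCT1 to the membrane, was at 0.05 ± 0.07 (0.945), and the related chaperone EMB at 0.01 ± 0.09. The acid-base transport list (16 members) had no call and a median of -0.03, or 0.13 with each array centred on its median. TXNIP, a glucose-sensitive inhibitor of glucose uptake, was at 0.22 ± 0.10 (0.572), and its list of 12 had no call.

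Lipid synthesis and protein folding genes had medians above that of all genes and 1 call. The 17 fatty acid synthesis genes had a median of 0.15 with no call and treated arrays above control arrays for 8 of them, against 8.42% of all genes. ELOVL6, an elongase, was at 0.51 ± 0.13 (adjusted p = 0.126). The 22 cholesterol genes had a median of 0.14 and no call, with treated arrays above for 11 (all genes 8.42%). FDPS, which makes farnesyl diphosphate, came nearest at 0.31 ± 0.07 (0.0520). Of 27 unfolded protein response genes MANF, a secreted protein of the endoplasmic reticulum, rose. It read 5480, 4899 and 5320 units under DMSO and 6487, 6611 and 7061 under AZD3965, a change of 0.36 ± 0.07 (0.0124). The chaperone HSPA5 (BiP) was at 0.36 ± 0.10 (0.205), and treated arrays lay above for 11 of the 27 (all genes 8.42%). The 48 genes of the ATF4 amino acid response had no call and a median of -0.03, or 0.13 with each array centred, with 7 members above and 7 below, where the shares of all genes were 8.42% and 10.9%.

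Cell division genes had no call in either direction. The 30 mitosis genes had a median of -0.11, or 0.05 with each array centred on its median, where all genes stood at 0.14. Treated arrays lay below control arrays for 13 of the 30, against 10.9% of all genes, with PLK1 at -0.31 ± 0.12 (adjusted p = 0.449), KIF4A at -0.23 ± 0.09 (0.399) and CDK1 at 0.00 ± 0.08. The 27 DNA replication genes had a median of -0.05, or 0.11 centred. The 23 targets of YAP and TAZ had a median of 0.11 and no call, and the 28 collagen and matrix genes 0.06 and no call. Beside these, 10 reference genes had a median of 0.03, or 0.19 centred.

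**Figure D4:**
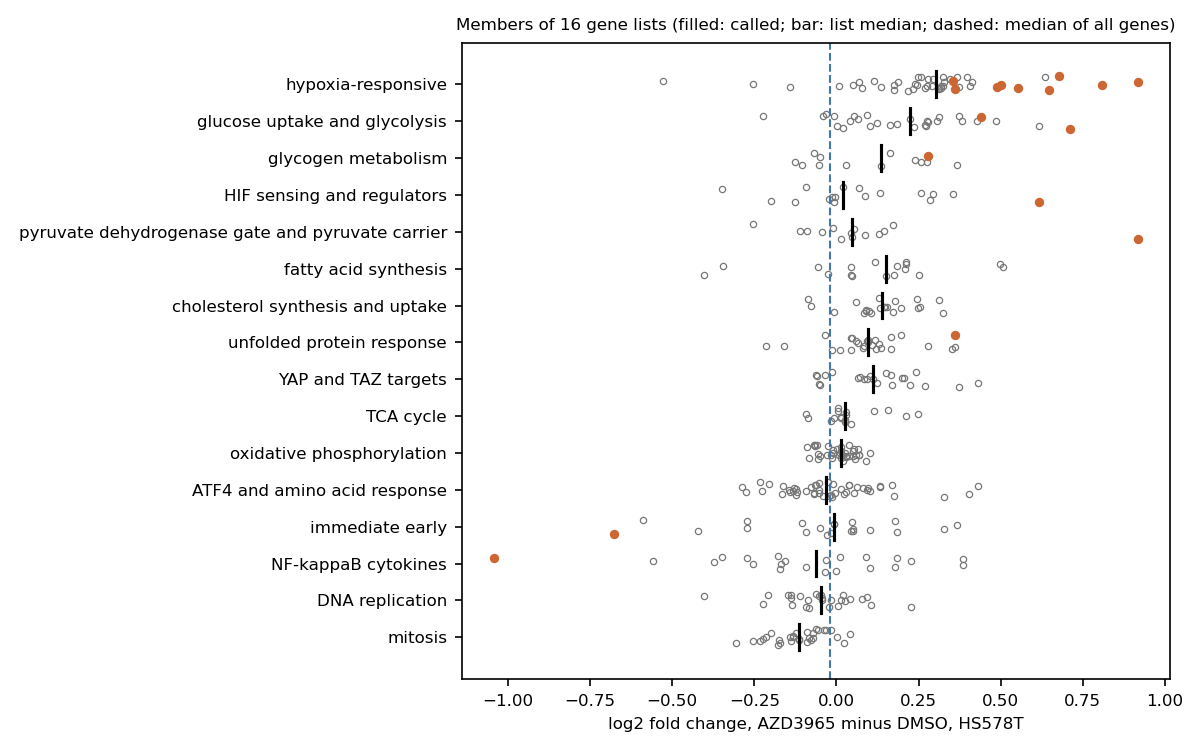
Log2 fold change in HS578T (AZD3965 minus DMSO) of the measured members of 16 gene lists. Each circle is a gene, filled orange where called, black bars are list medians and the dashed line is the median of all genes tested, -0.02. The hypoxia-responsive list is centred at 0.30 and holds 9 called genes, and the mitosis list at -0.11 with none (0.05 with each array centred on its median).

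Genes outside these pathways rose as well. HAS2, the hyaluronan synthase of the plasma membrane, read 826, 987 and 880 units under DMSO and 1377, 1429 and 1648 under AZD3965. It rose by 0.72 ± 0.12 (adjusted p = 0.00504), and was 1 of 3 genes, with AK4 and BNIP3, called under all 18 alternative settings. RHOB, a small GTPase of endosomes, read 844, 833 and 889 units and then 1136, 1450 and 1397, a rise of 0.62 ± 0.10 (0.00641), while the mean of its probe sets gave 0.24 (0.762). The treated arrays of RHOB were more spread than its controls but did not reach them. The receptor tyrosine phosphatase gene PTPRF rose by 0.58 ± 0.10 (0.00977), and its 3 other probe sets gave 0.41, 0.35 and 0.15, with 0.37 (0.414) for the mean of all. Of 14 synaptic adhesion genes, a list drawn up with their rise known, the adhesion genes NRXN3 and TENM2 rose. NRXN3, a presynaptic neurexin, read 122, 120 and 112 units and then 237, 216 and 255, and the rise of 0.91 ± 0.19 (0.0356) was lost in each fit that left out an HS578T array. TENM2, a teneurin, rose by 0.86 ± 0.16 (0.0178). The dim genes PNLIPRP3 (0.90), NMU (0.80) and ADGRG6 (0.60) had treated means under 30 units, and with an offset of 64 none of them passed (adjusted p of 0.344, 0.252 and 0.418). They entered the test through their signal in the other lines, with SUM149PT DMSO means of 4732, 2017 and 640 units. With the 6 HS578T arrays alone none of them was called (adjusted p of 0.263, 0.286 and 0.403). NMU, which encodes the peptide neuromedin U, read 10.7, 7.15 and 8.39 units and then 37.2, 21.9 and 23.6.

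Among the 13 genes that fell, EGR1 encodes a zinc finger factor of the immediate early response. It read 1727, 1882 and 1816 units under DMSO and 863, 1229 and 1341 under AZD3965. AZD3965 replicate 1 was the lowest array. The fall was -0.68 ± 0.13 (adjusted p = 0.0240), with -1.02 and -1.06 for its other probe sets, and without that array it was -0.49 (0.171). Among 21 immediate early genes EGR1 was the 1 called member, and the ERK phosphatase gene DUSP6 was at -0.42 ± 0.11 (0.155). BCL2L11, which encodes the pro-apoptotic protein BIM, read 317, 349 and 297 units and then 222, 207 and 209. It fell by 0.56 on the log2 scale (0.0356), all 6 of its other probe sets had the same direction, and the call was lost in each fit without an HS578T array (highest adjusted p = 0.163). LOC389906, an uncharacterised locus, read 103, 99.7 and 103 units and then 42.2, 45.7 and 45.5, a change of -0.96 ± 0.15 (0.00332), and its 5 other probe sets had the same direction at -0.14 to -0.49. The mean of its probe sets gave -0.36 (0.281), and with the 6 HS578T arrays alone its adjusted p was 0.0711.

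The cytokine gene TNF read 34.8, 56.0 and 38.4 units under DMSO and 8.20, 10.1 and 20.1 under AZD3965, a change of -1.04 ± 0.20 (adjusted p = 0.0160). DLX3, a homeobox gene, read 54.2, 40.7 and 67.6 units and then 7.32, 13.7 and 14.0, a change of -1.33 ± 0.25 (0.0178). WNT10A, a secreted WNT ligand, was at -1.03 ± 0.21 (0.0356). These levels lie where the whole array moved. The median signal was 59.4 to 60.5 units on the DMSO arrays and 50.2 to 53.5 on the AZD3965 arrays, 24.7% to 25.1% against 27.0% to 28.3% of probe sets read under 16 units, and the median change of genes between 30 and 60 units was -0.18. With each array centred on its median TNF gave -0.88 (0.0572), DLX3 -1.18 (0.0658), WNT10A -0.87 (0.113), EGR1 -0.52 (0.152) and BCL2L11 -0.40 (0.266), so none of these passed, while LOC389906 did (-0.81, 0.0382). An offset of 64 ended the calls of TNF (-0.48, 0.0989), DLX3 (-0.64, 0.0512) and WNT10A (-0.41, 0.318). With an offset of 1 all 3 were called, TNF at -1.74 (0.00459), DLX3 at -2.14 (0.0265) and WNT10A at -2.19 (0.00264). Under quantile normalization TNF passed (-0.89, 0.0417), and DLX3 (0.0605) and WNT10A (0.0843) did not. With the 6 HS578T arrays alone TNF (0.191), DLX3 (0.0914) and WNT10A (0.231) were not called. The part of the array-wide shift in these falls was not otherwise tested.

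The effect of AZD3965 in HS578T was set against the mean of its effects in SUM149PT and SUM159PT. The difference was called for 23 genes (0.163%), 19 higher in HS578T (0.134%) and 4 lower (0.0283%), and 1835 genes (13%) had an unadjusted p under 0.05. None of the 43 genes changed in HS578T was called in either other line, where 4 genes (0.0283%, with 2330 or 16.5% at an unadjusted p under 0.05) and 0 genes (0%, with 954 or 6.75%) passed in limma. Of the 43, 15 were also called for the difference. The count for the difference was 10 without AZD3965 replicate 1, 11 without AZD3965 replicate 3, 5 without DMSO replicate 1, 39 without DMSO replicate 3 and 49 without the scramble array. With each array centred on its median it was 19, of which 18 were higher in HS578T and 1 lower. Among the hypoxia-responsive genes 8 of 46 had a called difference, with a higher effect in HS578T than the mean of the other lines. They were PDK1, AK4, BNIP3, BNIP3L, P4HA1, PLOD2, NDRG1 and TMEM45A. BNIP3L and PLOD2 were not called in HS578T itself, and BNIP3L was at 0.24 there, -0.37 in SUM149PT and -0.17 in SUM159PT. Against SUM159PT alone PDK1, AK4, BNIP3 and P4HA1 were called. PLOD2, NDRG1, TMEM45A and BNIP3L were not (adjusted p of 0.253, 0.242, 0.275 and 0.282). Against SUM149PT alone TMEM45A was not called (0.0581) and the others were. For PDK1 the effects were 0.92 in HS578T, -0.21 in SUM149PT and 0.02 in SUM159PT, a difference of 1.01 ± 0.12 (adjusted p = 1.96e-04). For BNIP3 they were 0.65, 0.00 and 0.06, a difference of 0.62 ± 0.08 (2.28e-04). The differences for AK4 (0.88 ± 0.13) and P4HA1 (0.59 ± 0.07) were called as well.

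For some genes the effects had opposite signs. HK2 was at 0.62 in HS578T, -0.50 in SUM149PT and -0.30 in SUM159PT, none of them called, and the difference of 1.01 ± 0.17 was (adjusted p = 0.0114). ITGB8, an integrin subunit that takes part in TGF-beta activation, was at 0.97, -0.64 and -0.58, a difference of 1.58 ± 0.28 (0.0122). KLF2, a zinc finger factor, was at 0.50, -0.22 and -0.38. TNF was at -1.04, 0.11 and 0.57, from DMSO means of 43.1, 556 and 16.8 units. The DMSO levels of the genes with a called difference followed no single order between lines. PDK1 had a DMSO mean of 818 units in HS578T, 1847 in SUM149PT and 1680 in SUM159PT, and under AZD3965 the HS578T mean was 1557. SLC2A1 and HK2 were likewise lowest in HS578T under DMSO, with SLC2A1 at 1188, 2021 and 1491 units. P4HA1, with 5233, 2905 and 3204 units, and PLOD2, NDRG1, BNIP3L and TMEM45A were highest in HS578T. These order statements are descriptions of means and were not tested.

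**Figure D5:**
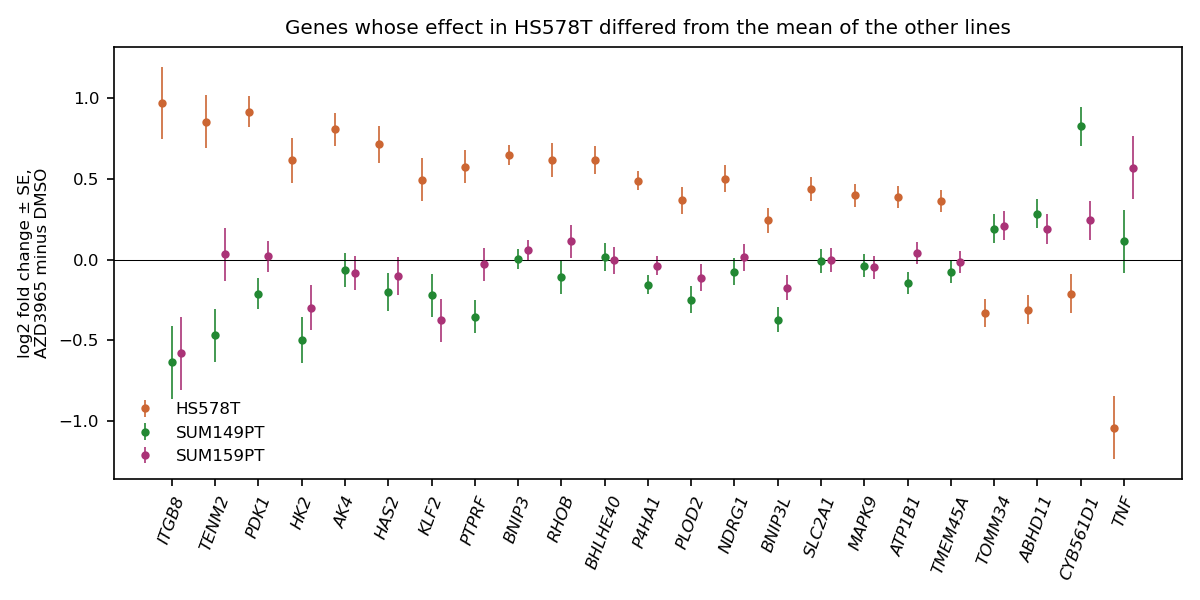
Log2 fold change ± SE (AZD3965 minus DMSO, 3 arrays per group) in HS578T (orange), SUM149PT (green) and SUM159PT (purple) for the 23 genes whose effect in HS578T differed from the mean of the other lines. For 19 genes the HS578T value is the highest and for TOMM34, ABHD11, CYB561D1 and TNF it is the lowest.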

How the data were processed

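RNA was hybridised to 24 Affymetrix arrays, and the authors deposited intensity values, linear signals made with MAS5 per the submitters' processing notes, which give no version. Every array had a trimmed mean of 500.1, so arrays were not normalized further. Of 54675 probe sets 41097 had 1 gene symbol, and for each of 19775 genes the probe set of highest mean over all 24 arrays was kept. An offset of 16 was added before log2, which understates changes of dim genes. A gene entered the test if its mean log2 value over all 24 arrays reached 5.58, the 40th percentile over probe sets. This left 14141 genes in 1 model of all 24 arrays in limma 3.58.1 (R 4.3.3, 16 residual and 6.52 prior degrees of freedom, trend). Tests were two-sided. Probe sets with several or no symbol were tested apart. Some transporter genes are not reported here.

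The members and the 43 lists (890 genes, 762 tested) were chosen with earlier results of these data known. The naming rule took up to 12 rises and falls among non-overlapping calls, called list members (up to 8) with up to 4 next by p, all members of 4 metabolic lists, up to 8 differences each way, SLC16A7 and BSG. On simulated data with 200 changed genes, 40% of 1.5-fold and 78% of 2-fold changes were recovered in HS578T, and 4.84% of calls were false. The simulated noise was independent between genes and held no array-wide shift, so these rates may differ in the real arrays.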

Additional observations from a re-analysis of the deposited data

Results flagged for a closer look

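The genes listed here had an effect of AZD3965 in HS578T that differed from the mean effect in SUM149PT and SUM159PT (limma, adjusted p under 0.05). The deviations of the HS578T treated arrays from their DMSO mean did not overlap those of the other lines. This non-overlap rests on the same values as the test and adds no support to it. It leaves out the spread of the DMSO arrays, and its share over all genes was not counted. Values are differences of log2 effects. Among hypoxia-responsive and glycolysis genes they were 1.01 for PDK1, 1.01 for HK2, 0.88 for AK4, 0.62 for BNIP3, 0.59 for P4HA1, 0.55 for PLOD2, 0.53 for NDRG1, 0.52 for BNIP3L, 0.44 for SLC2A1 and 0.41 for TMEM45A. The hypoxia-induced repressor gene BHLHE40 differed by 0.61. Among genes of the cell surface, matrix and signalling they were 1.58 for ITGB8, 1.07 for TENM2, 0.87 for HAS2, 0.77 for PTPRF, 0.62 for RHOB, 0.44 for MAPK9 and 0.44 for ATP1B1, and 0.80 for the transcription factor gene KLF2. The effect was lower in HS578T for TOMM34 (-0.53), ABHD11 (-0.55), CYB561D1 (-0.75) and TNF (-1.39). With each array centred on its median, 18 differences were called higher in HS578T and 1 lower. TNF was dim in HS578T (43.1 units under DMSO and 12.8 under AZD3965) and in SUM159PT (16.8 and 32.4). In SUM149PT its DMSO mean was 556 units. CYB561D1 was called in SUM149PT, where it rose by 0.83, and was at -0.21 in HS578T without a call. Against SUM159PT alone the differences of PDK1, AK4, BNIP3, P4HA1 and TNF were called, and those of the other genes listed were not. In every fit that left out an HS578T array the differences of PDK1, AK4, BNIP3 and P4HA1 were called, that of CYB561D1 was called in none of them, and each of the others lost its call in at least 1. Medium differs between the lines, and line and medium cannot be told apart.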

How the results depend on the processing

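No called gene or called difference reversed its direction under an alternative that measured it, nor did the medians of the hypoxia-responsive and glycolysis lists. Some other genes named in the text were not part of this check. The medians of the mitosis, DNA replication, ATF4 and acid-base transport lists changed sign with each array centred on its median. The count of 43 genes called in HS578T was 388 with array weights, 26 with the mean of probe sets, 25 with an offset of 64 and 28 with the 6 HS578T arrays alone. Of the 43 genes, 43, 21, 23 and 13 kept their call under these settings, in the same order. With the 6 HS578T arrays alone SLC2A1 (adjusted p = 0.0711), ENO2 (0.0563), RHOB (0.0563), MANF (0.0692) and TMEM45A (0.0526) were among those lost. Leaving out single arrays gave 15 to 77. The count of 23 called differences between lines was 295 with array weights and 5 to 49 without single arrays. Same-numbered arrays showed no shared deviation, with correlations of -0.0634, -0.0306 and 0.0233, against -0.109 to 0.134 for unlike numbers. These values cannot tell whether the samples were paired by design. With the replicate block 8 genes and 8 differences were called, and all 8 genes were among the 43. The hypoxia-responsive median of 0.30 was 0.46 with arrays centred on their medians, where all genes stood at 0.14. The glycolysis median of 0.22 was 0.17 with the 60th percentile filter, 0.38 centred, 0.12 with the mean of probe sets, 0.19 with an offset of 64 and 0.18 to 0.26 without single arrays. With array weights the 388 were 200 rises and 188 falls (51.5% rises, against 69.8%), and the 295 were 138 and 157 (46.8%, against 82.6%). Of the 13 falls, centring left 1 called, with EGR1, NMI, OARD1 and BORCS7 among those it lost, and the offset of 64 left 3. Beyond what each setting's construction shows, the cause was not tested. With 3 arrays per group, the simulation recovered 40% of 1.5-fold and 78% of 2-fold changes, so changes of these sizes can be missed. How many were missed in these data cannot be told from it. Smaller changes were not simulated.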

Other observations

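Among the 5649 probe sets with several gene symbols or none that passed the same filter, limma called 0 in HS578T, while 321 had an unadjusted p under 0.05. GSTT2, a glutathione transferase gene, rose from 64.3 ± 6.92 to 113 ± 11.6 units (SD, n = 3 arrays per group), and ASS1, the argininosuccinate synthase of the arginine pathway, from 311 ± 4.03 to 415 ± 24.3 units. EFEMP1, an extracellular matrix glycoprotein gene, rose from 11860 ± 130 to 14320 ± 603 units. The kinase gene MAPK9, which encodes JNK2, rose from 1198 ± 101 to 1581 ± 89.4 units, although its other probe sets gave -0.03 and 0.08 on the log2 scale. ASS1 and EFEMP1 were not called in any fit that left out an HS578T array.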
